A study of Drosophila melanogaster with 14 samples.

Results

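The RNA of cells treated with double-stranded RNA against Polyhomeotic (Ph) was compared directly with that of cells treated against Sex combs extra (Sce), over all 7624 genes of the deposited table. The quantity compared was the ratio of the 2 group means, Ph over Sce, which does not involve the mock-treated cells. All cells were of the Drosophila line ML-DmBG3-c2 (BG3), derived from the larval central nervous system. The study sequenced total RNA, depleted of ribosomal RNA, in 14 libraries: 3 labelled Ph RNAi, 3 labelled Sce RNAi, 2 labelled Pc RNAi (Polycomb) and 6 labelled Mock. Its stated purpose was to compare RNA levels in each depleted population with those in Mock, so Ph against Sce is a contrast that the design allows and the deposited table does not itself test. All groups were grown in the same insulin-supplemented medium, and they share the low-serum step of the RNAi procedure. The labels describe a single line and no separate clones, and they give neither the amount of double-stranded RNA nor the length of treatment for each group.

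Ph and Sce are subunits of Polycomb Repressive Complex 1 (PRC1), which keeps developmental genes silent in the cells where they should not be used. Ph carries a SAM domain through which PRC1 particles polymerise and compact chromatin. Sce is the RING-type ubiquitin ligase that places ubiquitin on histone H2A, and it works with the ring finger partners Psc and Su(z)2. Classic targets of PRC1 are the Hox genes and other homeobox genes that set segment and organ identity.

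The table gave 1 mean signal per gene and group and no values of single libraries, so no spread between replicates stands beside any value below and no difference between Ph and Sce could be tested. Genes are therefore described as higher or lower, with both means, and they are counted where the means were at least 2-fold or 4-fold apart. The signal is on an unstated scale and may or may not be divided by gene length, so levels are compared between groups and not between genes. Sequencing depth per library is unknown. The columns of the 2 groups had sums that differed by 0.0034%, so they had been put on a common total. Every listed gene reached a mean of at least 798.3 in some group, Mock and Pc included.

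As a check of the labels, the targeted genes were read first. The mean of ph-p was 191903 with Ph and 21464 with Sce, an 8.94-fold difference, and that of its near-identical neighbour ph-d was 194873 with Ph and 21123 with Sce. The mean of Sce was 36536 with Ph and 681672 with Sce, a ratio of 0.0536. Each targeted gene was thus high in the group labelled for it, and Mock lay near the other group, at 22215 for ph-p, 24093 for ph-d and 25261 for Sce. The table does not separate transcripts of the gene from the added double-stranded RNA, so these means do not show depletion, and the directions below are those of the labelled groups. Reads of ph-p and ph-d may also have been divided between the 2 genes. Of the genes beside the pair, csw, next to ph-d, had 54790 with Ph and 53426 with Sce. CG3835, next to ph-p, had 18124 with Ph and 12238 with Sce, a log2 ratio of 0.57. Beside Sce, CG12883 had a log2 ratio of -0.15, and CG12880 had 11392 with Ph and 3688 with Sce (1.63).

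Across the 7624 genes the groups were close, with a median log2 ratio of -0.01 and quartiles of -0.29 and 0.29. With Ph, 495 genes were at least 2-fold higher than with Sce, which is 6.49% of the table, and 332 were at least 2-fold lower, which is 4.35%. Counts of list members below are to be read beside these shares. At 4-fold the sides were less even, with 245 genes higher (3.21%) and 55 lower (0.721%). Much of the surplus of large positive ratios lay among genes with little signal in the Sce group. Among the 378 genes whose Sce mean was under 798.3, 235 were at least 2-fold higher with Ph. Among the 7114 genes with both means at or above that level, the counts were 260 higher and 221 lower at 2-fold, and 86 higher and 22 lower at 4-fold. Since each listed gene had to reach that level in some group, a gene nearly silent with Sce could enter the table through Ph, and the counts of such genes are partly set by that filter. Of genes named below, at least Ubx, abd-A, Optix, disco, disco-r, Dll, slp1, slp2, SoxN, Ace, m6, wg, btd, lz and ImpE1 reached it only with Ph. Their direction was fixed in advance by that filter.

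**Figure D1:**
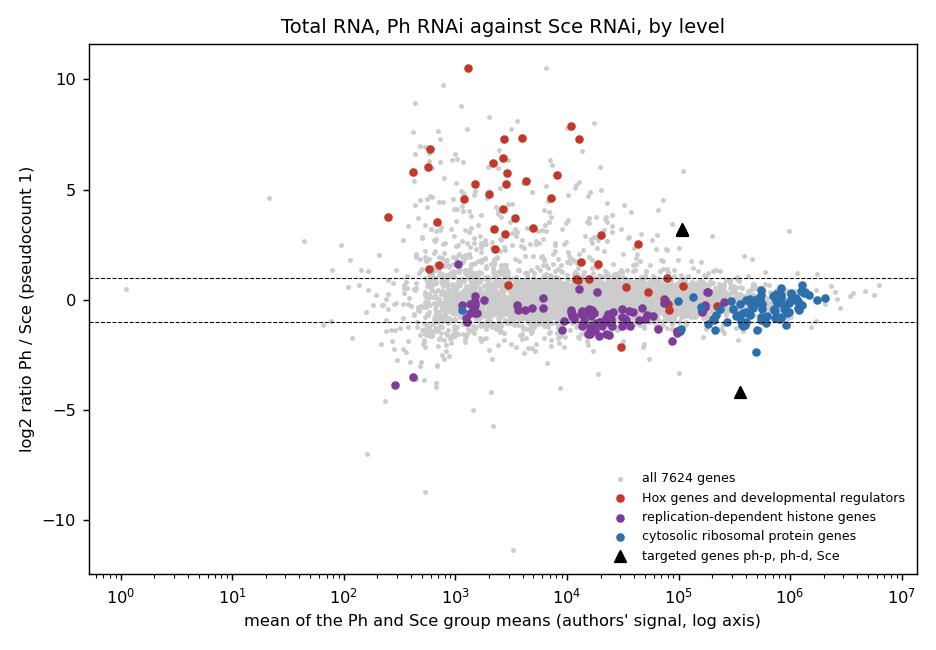
Each point is 1 of 7624 genes: the horizontal axis is the mean of the Ph and Sce group means on a log axis, and the vertical axis is the log2 ratio of Ph to Sce with a pseudocount of 1. Dashed lines mark 2-fold. Hox genes and developmental regulators (red) lie mostly above the upper line, histone (purple) and ribosomal protein genes (blue) mostly below 0, and the targeted genes ph-p, ph-d and Sce are black triangles.

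Of the 495 genes at least 2-fold higher with Ph, Mock was within 2-fold of the Sce mean for 271 (54.7%) and within 2-fold of the Ph mean for 124 (25.1%). Of the 332 genes lower with Ph, Mock was within 2-fold of the Sce mean for 261 (78.6%) and of the Ph mean for 110 (33.1%). More genes thus had Mock near Sce than near Ph on either side. Cells treated against Pc lay between the 2 groups for 333 of the 495 higher genes and for 169 of the 332 lower genes.

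The Hox genes, which encode the homeodomain proteins of segment identity, were all higher with Ph. The table listed 5 of the 8, and each was at least 2-fold higher, where 6.49% of all genes were. Their median log2 ratio was 3.27 against -0.01 over all genes, and 2.44 over the 2 members with both means at or above 798.3. Ubx, the identity gene of the posterior thorax, had a mean of 4261 with Ph and 57.4 with Sce. The abdominal gene abd-A had 2937 with Ph and 76.2 with Sce. These 2 genes were near silent with Sce and had 5.18 and 9.16 in Mock. They reached 798.3 only with Ph, so their direction was set by that filter, and the median of 3.27 includes them. The other 3 had signal in both groups: Antp had 8938 with Ph and 929 with Sce (9.63-fold), and Scr had 3796 with Ph and 774 with Sce (4.90-fold). Abd-B, the most posterior member, had 28606 with Ph and 9393 with Sce (3.05-fold), against 13.7 in Mock. So the more posterior Abd-B and the anterior Scr had smaller ratios than Ubx and abd-A. In the authors' deposited table, which tests against Mock, 4 of the 5 passed q under 0.05 with Ph, where 3.88% of all genes did, and Abd-B alone passed with Sce, where 0.249% did. Passing in 1 group and not in the other does not itself show that the groups differ. The Pc group exceeded Ph at Scr (29800), lay near it at Abd-B (26282) and was far lower at Ubx (284).

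Developmental regulators other than Hox genes, mostly homeobox and zinc finger factors of head, eye, limb and nerve cord, had the same direction. Of 82 on the list, 40 were in the table, and 27 of these (67.5%) were at least 2-fold higher with Ph, against 6.49% of all genes. Only C15 was at least 2-fold lower. Several of the higher members, such as Optix, disco-r and Dll, reached 798.3 only with Ph. Their direction was set by that filter, and the share of 67.5% includes them. The median log2 ratio of the 40 was 3.36. This median depended on genes nearly silent with Sce: for the 16 members with both means at or above 798.3, it was 0.65, with 3 at least 2-fold higher and 1 lower. In the authors' deposited table, 27 of the 40 passed q under 0.05 against Mock with Ph, and 1 did with Sce.

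Several of these regulators were close to all or nothing. Optix, a Six-family gene of eye development, had 21557 with Ph and 88.8 with Sce. The head gap gene oc had 25732 with Ph and 162 with Sce, and the zinc finger gene disco-r had 7833 with Ph and 47.8 with Sce. The limb gene Dll had 2594 with Ph and stood at the lowest value of the column, 0.77, with Sce, so no ratio is given. Others had signal with Sce and more with Ph: zfh2 had 74292 with Ph and 12890 with Sce (5.76-fold), and the retinal homeobox gene Vsx1 had 35931 with Ph and 4682 with Sce (7.67-fold). NK7.1, at 105012 with Ph and 52832 with Sce, lay just under 2-fold. A further set hardly differed: exd and hth, which encode Hox cofactors, had log2 ratios of 0.02 and -0.47, and zfh1 had -0.27. C15, a homeobox gene of the distal leg, stood apart at 11201 with Ph and 49961 with Sce, a ratio of 0.224, with 119290 in Mock and 13739 with Pc.

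**Figure D2:**
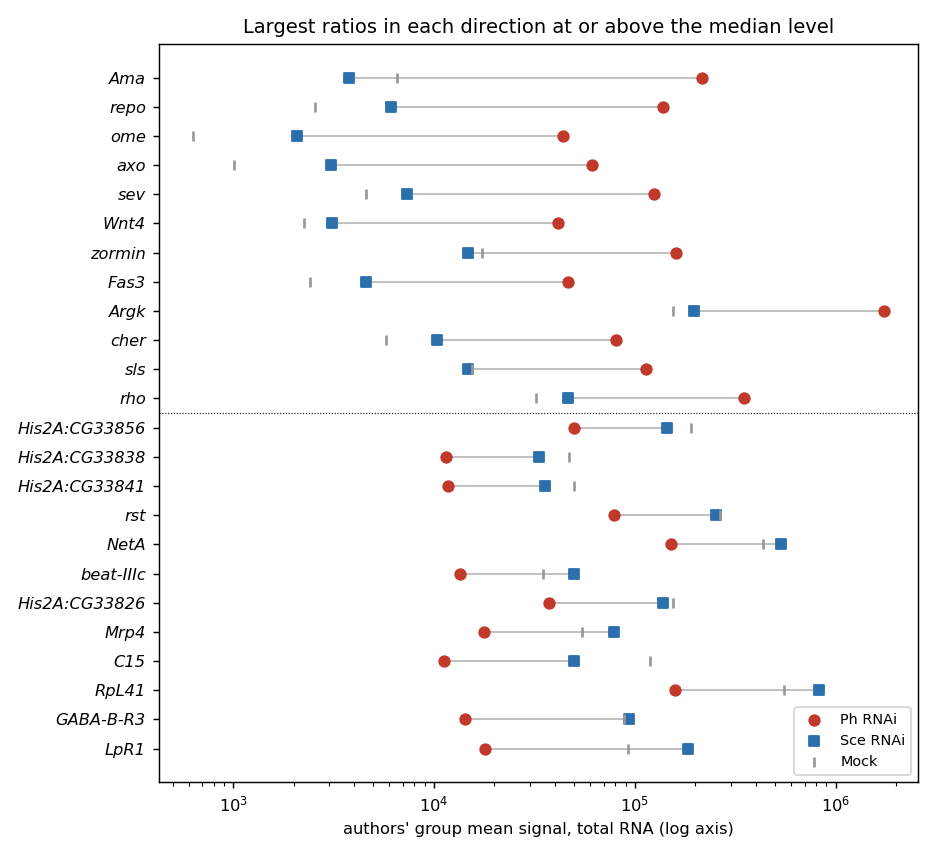
For the 12 genes with the largest ratio in each direction among genes at or above the median level, leaving out the targeted genes and genes with a bare CG or CR number, circles give the authors' mean with Ph RNAi, squares with Sce RNAi and ticks in Mock, on a log axis. From Ama (216074 with Ph and 3769 with Sce) to rho the circle lies right of the square, and from His2A:CG33856 to LpR1 (17919 with Ph and 183731 with Sce) it lies left of it.

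Among genes of the nervous system, some glial and neural precursor genes were far higher with Ph, while 10 of 17 glial and 8 of 10 neuronal genes were within 2-fold. Of 17 listed glial markers, 5 were at least 2-fold higher and 2 lower, where 6.49% and 4.35% of all genes were, and the median log2 ratio was 0.31. The glial master regulator repo had 138658 with Ph and 6081 with Sce (22.8-fold), axo had 61166 with Ph and 3068 with Sce (19.9-fold), and ltl had 39008 with Ph and 608 with Sce (64.1-fold). These 3 genes were far apart, but moody and Gli, which encode proteins of the glial blood-brain barrier, had log2 ratios of -0.59 and -0.37. The phosphatidic acid phosphatase gene wun2 was lower, at 9206 with Ph and 27123 with Sce. The glial list summed to 1375444 with Ph and 938276 with Sce, and gcm, which starts the glial fate, was not listed in the table.

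Of 9 listed neuroblast markers, 4 (44.4%, against 6.49% of all genes) were at least 2-fold higher and none lower. Their median log2 ratio was 0.55, but it was -0.02 over the members with both means at or above 798.3. SoxN, a Sox factor of the early neuroectoderm, had 19970 with Ph and 88.2 with Sce, and chinmo, a temporal identity factor, had 27161 with Ph and 253 with Sce. Prospero, which is handed to the differentiating daughter of a neuroblast, was encoded by a transcript at 28436 with Ph and 4343 with Sce (6.55-fold), and its partner in asymmetric division insc was at 35073 with Ph and 7560 with Sce (4.64-fold). SoxN, chinmo and pros passed the authors' q under 0.05 against Mock with Ph, and insc did not. The other 5 listed neuroblast markers, mira among them, were within 2-fold. The neuronal list had 10 genes in the table, with 1 higher and 1 lower. Acetylcholinesterase (Ace) had 1391 with Ph and 5.99 with Sce, whereas the metabotropic GABA receptor gene GABA-B-R3 had 14282 with Ph and 93582 with Sce (0.153-fold). The pan-neuronal RNA-binding gene elav was near equal, at 21194 with Ph and 16273 with Sce. Genes of synaptic vesicle release had signal in both groups as well, with unc-13 at 263479 with Ph and 311072 with Sce and Syx1A at 22887 with Ph and 31228 with Sce. The synaptic and transmitter genes brp, nSyb and ChAT were not listed.

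Markers of other tissues were examined beside these. Of 15 listed muscle genes, 6 (40.0%) were at least 2-fold higher with Ph and 1 (6.67%) lower, against 6.49% and 4.35% of all genes. The list summed to 994337 with Ph and 773874 with Sce. The mesoderm determinant twi had 7107 with Ph and 25.0 with Sce, and the titin-like genes sls and zormin had 113251 and 161323 with Ph, against 14755 and 14834 with Sce. Against Mock with Ph, twi and zormin passed the authors' q under 0.05 and sls did not. The actin gene Act79B was lower, at 1287 with Ph and 6900 with Sce, and kirre was 0.652-fold. The muscle myosin genes Mhc and Mlc2 were not listed, and Mef2, the core muscle factor, was near equal at 49736 with Ph and 45632 with Sce. Of 14 listed hemocyte (blood cell) genes, 4 (28.6%) were higher, 1 (7.14%) was lower and 9 of the 14 had a ratio below 1. That list summed to 3221383 with Ph and 5879347 with Sce, most of it from the collagen genes vkg and Cg25C. The hemocyte markers NimC1 and PPO1 were not listed, and Hml was at 236 with Ph and 95.2 with Sce. In bulk RNA, fewer cells of a type and less RNA per cell cannot be told apart, and the part of other cell types in any difference was not tested.

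In the Notch pathway, the ligand genes Dl and Ser and the listed Enhancer of split genes were higher with Ph, and most of the core genes were near equal. Of 26 listed members, 10 (38.5%, against 6.49% of all genes) were at least 2-fold higher and none lower. The median log2 ratio was 0.44, which was -0.01 over the members at or above the median level of all genes. The ligand genes Dl and Ser were 2.95-fold and 2.22-fold higher, and fng, whose glycosyltransferase tunes ligand binding, had 23200 with Ph and 4835 with Sce (4.80-fold). The receptor gene N was 1.80-fold higher. The Enhancer of split complex, which Notch switches on, holds basic helix-loop-helix repressor genes and Bearded-family genes. Of the repressor genes, HLHm3 had 29871 with Ph and 1132 with Sce (26.4-fold), and HLHmbeta had 11495 with Ph and 1095 with Sce (10.5-fold). The repressor gene HLHm7 and the Bearded-family gene m6 had 1141 and 2234 with Ph, against 13.6 and 4.07 with Sce. The ratio was 1.33 for the transcription factor gene Su(H), 0.773 for the coactivator gene mam and 1.02 for the presenilin gene Psn.

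Receptor tyrosine kinase signalling, through the EGF, FGF and Sevenless receptors, leaned to Ph in total RNA across nearly the whole list. Of 30 listed genes, 27 had a ratio above 1, where 3780 of all 7624 genes did, and the median log2 ratio was 0.53. Among them, 8 (26.7%) were at least 2-fold higher and none was 2-fold lower, against 6.49% and 4.35% of all genes. The receptor gene sev had 123951 with Ph and 7306 with Sce (17.0-fold), and rho, whose protease releases EGF ligands, had 351394 with Ph and 46738 with Sce (7.52-fold). The FGF adaptor gene stumps had 63493 with Ph and 8966 with Sce (7.08-fold). Inhibitors that the pathway induces were higher too: aos had 100030 with Ph and 15296 with Sce (6.54-fold), sty was 1.51-fold and kek1 1.44-fold higher. The cytoplasmic kinase genes phl and Dsor1 were 1.01-fold and 1.14-fold higher. Against Mock, sev, stumps and aos passed the authors' q under 0.05 with Ph, and rho and sty did not.

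Ligand genes were also higher with Ph in the Wnt, Dpp and JAK-STAT lists. Over all genes, 6.49% were at least 2-fold higher and 4.35% lower. In the Wnt list (20 genes, 4 at least 2-fold higher, 1 lower), wg had 5594 with Ph and 275 with Sce (20.4-fold), and Wnt4 had 41240 with Ph and 3093 with Sce (13.3-fold), while the receptor gene fz2 was 0.494-fold. In the list of the BMP-like Dpp pathway (22 genes, 5 higher, 2 lower), dpp itself had 12508 with Ph and 350 with Sce (35.7-fold), and its induced inhibitor Dad was 3.36-fold higher. In the JAK-STAT list (13 genes, 4 higher, none lower), the largest ratio was that of the transcription factor gene chinmo given above, the cytokine genes upd2 and upd3 were 5.73-fold and 2.54-fold higher, and the feedback inhibitor gene Socs36E had 258949 with Ph and 111317 with Sce (2.33-fold). Against Mock, wg, Wnt4, Dad and chinmo passed the authors' q under 0.05 with Ph, while dpp, upd2, upd3 and Socs36E did not. In each of these 3 pathways at least 1 ligand gene was over 2-fold higher with Ph. The Hedgehog list differed, with none of 14 genes 2-fold higher and the receptor gene ptc lower, at 25121 with Ph and 54547 with Sce (0.461-fold). Of 18 ecdysone response genes, 2 (11.1%) were higher and 1 (5.56%) lower, near the shares over all genes. Among them, ImpE1 had 4831 with Ph and 42.2 with Sce.

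**Figure D3:**
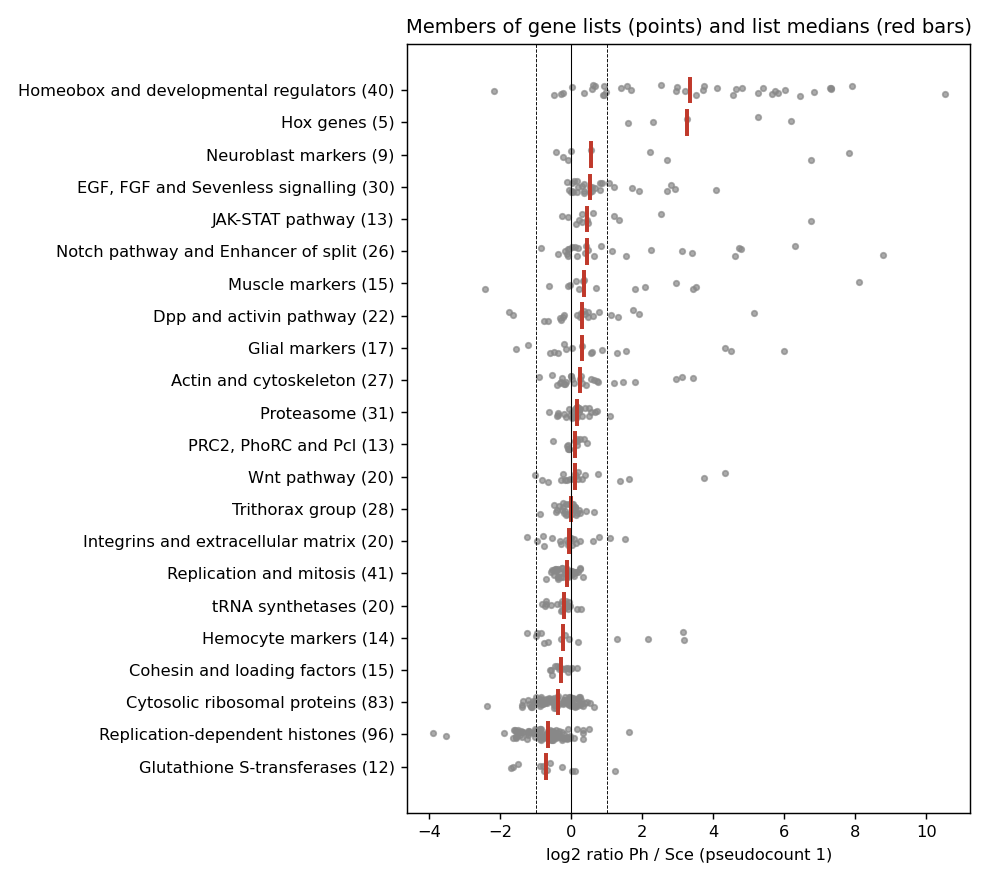
Rows are gene lists with the number of listed members in parentheses, points are members' log2 ratios of Ph to Sce (pseudocount 1) and red bars are list medians; dashed lines mark 2-fold. Medians run from 3.36 for homeobox and developmental regulators and 3.27 for Hox genes to -0.64 for histone genes and -0.72 for glutathione S-transferases.

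Of 20 listed segmentation and mesoderm factors, 6 were at least 2-fold higher with Ph and none lower, with a median log2 ratio of 0.18, or -0.03 over the members with both means at or above 798.3. The tracheal determinant trh had 9844 with Ph and 1118 with Sce (8.81-fold), the head gap gene btd had 1064 with Ph and 57.4 with Sce, and the Runx gene lz had 1303 with Ph and 145 with Sce. Both btd and lz reached 798.3 only with Ph. Factors used in many tissues were near equal, such as da, the common partner of helix-loop-helix proteins, at a log2 ratio of 0.22.

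Cell surface and guidance genes differed in both directions. Of 41 listed genes, 9 (22.0%) were at least 2-fold higher with Ph and 4 (9.76%) lower, against 6.49% and 4.35% of all genes. The median log2 ratio was 0.06. The immunoglobulin-domain gene Ama, which lies beside the Antennapedia complex genes, had 216074 with Ph and 3769 with Sce (57.3-fold). Adhesion genes Fas3 and Con had 46252 and 14385 with Ph, against 4602 and 204 with Sce. The receptor genes for Netrin, fra and unc-5, were 3.39-fold and 2.74-fold higher, whereas the ligand gene NetA was lower, at 150916 with Ph and 532194 with Sce (0.284-fold). Netrin receptors and ligand therefore differed in opposite directions. The adhesion genes rst and CadN were also lower, at 0.311-fold and 0.397-fold. Con and NetA passed the authors' q under 0.05 against Mock with Ph, and Ama, Fas3 and rst did not.

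Genes with strong signal in both groups had some of the largest differences of means at modest ratios. Arc1, whose capsid-like protein carries RNA between neurons, had 7692679 with Ph and 4908175 with Sce (1.57-fold). The tubulin genes betaTub56D and alphaTub84B were 1.54-fold and 1.22-fold higher with Ph, the actin gene Act5C 1.33-fold and the chaperone gene Hsp83 1.26-fold. The elongation factor gene Ef2b was lower, at 2430974 with Ph and 3194183 with Sce (0.761-fold), and klar, which links nuclei to microtubules, was 0.562-fold.

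In the list of actin and cytoskeleton genes, 6 of 27 (22.2%, against 6.49% of all genes) were at least 2-fold higher with Ph and none lower. Arginine kinase (Argk), which buffers ATP, had 1739577 with Ph and 198317 with Sce (8.77-fold), and the filamin gene cher had 81027 with Ph and 10387 with Sce (7.80-fold). Against Mock with Ph, cher passed the authors' q under 0.05 and Argk did not. In the matrix list, 2 of 20 (10.0%) were higher and 1 (5.00%) lower, near the shares over all genes. Its type IV collagen genes of the basement membrane, vkg and Cg25C, had 911413 and 1155456 with Ph, against 2146398 and 2238630 with Sce. The laminin gene LanB1 was 0.583-fold. The matrix inhibitor gene Timp was 2.84-fold higher. Lipid uptake genes were lower with Ph: the lipophorin receptor gene LpR1 had 17919 with Ph and 183731 with Sce (0.0975-fold), and LpR2 had 73882 with Ph and 158115 with Sce (0.467-fold). For LpR1, Mock lay between at 92674 and Pc beside Ph at 19342. Neither LpR1 nor LpR2 passed the authors' q under 0.05 against Mock with Ph or with Sce. In the lipid list as a whole, 3 of 12 genes (25.0%, against 4.35% of all genes) were at least 2-fold lower and none higher.

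The Polycomb and Trithorax genes differed little apart from the targeted ones. Psc and Su(z)2, which encode the ring finger partners, had 100419 and 231381 with Ph, against 86242 and 256371 with Sce, or 1.16-fold and 0.903-fold, although both stood above Mock (30980 and 44132) in either group. The targeted subunit gene of the Pc group, Pc, had 7868 with Ph and 6768 with Sce. The remaining members of that list, Scm, Kdm2, l(3)73Ah, RYBP and, from related complexes, Sfmbt, Asx and calypso, lay between 0.901-fold and 1.12-fold. None of 13 genes of PRC2 and its partners and none of 28 Trithorax genes was 2-fold apart, where 6.49% and 4.35% of all genes were higher and lower. All of them had both means at or above 798.3, where the shares were 3.65% and 3.11%. For lists this short, none is near what those shares would give. No gene was 2-fold apart either among 12 dosage compensation, 15 cohesin and condensin, 17 RNA interference, 41 replication and mitosis, 28 translation factor and 20 tRNA synthetase genes. The cohesin and condensin list had 13 of 15 ratios below 1, with a median log2 ratio of -0.27. Its largest differences were those of the condensin genes glu, Cap-H2, barr and SMC2, with log2 ratios from -0.60 to -0.46. Of the tRNA synthetase genes, 18 of 20 had ratios below 1, with a median of -0.21. Of 15 general control genes, with a median of 0.08, Gapdh2 was 2.07-fold higher and RpL32 was 0.453-fold.

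Many histone and ribosomal protein genes, which have short transcripts, were lower with Ph. The clustered histone genes, used in S phase, are listed as 96 copies, of which 89 lay below a ratio of 1 and 28 were at least 2-fold lower, where 4.35% of all genes were. Their median log2 ratio was -0.64, and their signal summed to 2762709 with Ph and 4130415 with Sce. The copies are near identical and read assignment among them is uncertain, so the classes were summed. Histone H2A copies summed to 382434 with Ph and 1056122 with Sce (0.362-fold), and H1 copies to 470476 with Ph and 850794 with Sce (0.553-fold). H3 copies were nearly equal, at 974029 with Ph and 982657 with Sce (0.991-fold), and H4 and H2B copies lay between, at 0.689-fold and 0.784-fold. The histone classes were therefore unequally apart.

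Of 83 cytosolic ribosomal protein genes, 61 had a ratio below 1, with a median log2 ratio of -0.38. Among them, 12 (14.5%) were at least 2-fold lower and none higher, against 4.35% and 6.49% of all genes. RpL41, which encodes the smallest ribosomal protein, had 158416 with Ph and 824493 with Sce (0.192-fold), and RpL27A was 0.444-fold. RpS18 was higher with Ph, at 1565147 with Ph and 996681 with Sce (1.57-fold). Over 72 genes of mitochondrial ribosomal proteins the median was -0.13. Of these, 3 (4.17%) were at least 2-fold lower and 1 (1.39%) higher, against the same shares. Among 61 genes of Mediator, TFIID and RNA polymerase II, 4 (6.56%) were at least 2-fold lower, near the 4.35% of all genes, and none was higher. They were MED11, MED10, Rpb10 and Rpb12.

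The ratio moved with exonic length at its short end. The 158 genes under 500 bp of exon had a median log2 ratio of -0.60, and 31.6% of them were at least 2-fold lower with Ph. The 907 genes of 500 to 999 bp had a median of -0.16. In the 4 longer classes, from 1000 bp upwards, the medians lay between -0.03 and 0.04. The Spearman correlation of exonic length with the log2 ratio was 0.094 (n = 7486). Without histone and ribosomal protein genes it was 0.061 (n = 7308). The shortest class itself holds H2A copies such as His2A:CG33856, at 493 bp, so its median is not independent of the histone result. The median exonic length of histone genes was 529 bp and of cytosolic ribosomal protein genes 909.5 bp, against 2142.5 bp over all genes. The part of transcript length in these differences was not tested.

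**Figure D4:**
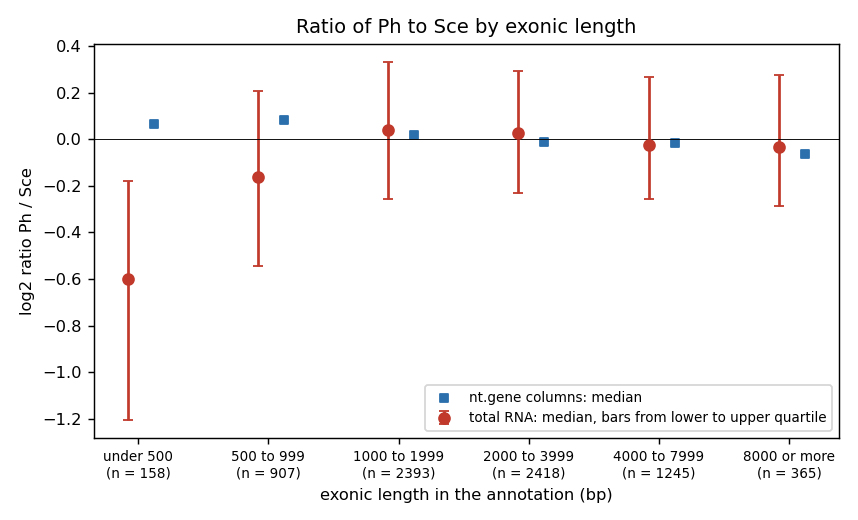
Circles give the median log2 ratio of Ph to Sce in total RNA for genes grouped by exonic length, with bars from the lower to the upper quartile, and squares the median of the nt.gene quotient. Total RNA medians are -0.60 under 500 bp and between -0.03 and 0.04 from 1000 bp upwards, and nt.gene medians stay between -0.06 and 0.08.

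A second set of columns in the authors' deposited table, headed nt.gene, gives ratios of Ph and of Sce to Mock for each gene. The sources used here do not say what it measured. Dividing the Ph ratio by the Sce ratio cancels Mock and gives a second value of Ph over Sce. Over the 495 genes at least 2-fold higher in total RNA, this quotient was above 1 for 415, with a median log2 value of 1.32, against 0.00 over all genes. Over the 332 lower genes it was below 1 for 225, with a median of -0.34. The direction of total RNA was thus shared by 415 of 495 higher genes and by 225 of 332 lower ones. Ubx was 52.0-fold, Optix 147-fold, repo 25.6-fold and sev 27.2-fold higher with Ph by the quotient in nt.gene, and LpR1 was 0.101-fold. Other large ratios were much smaller by the quotient: Con was 1.56-fold, Ace 2.05-fold, sls 1.40-fold and twi 5.06-fold higher. In the receptor tyrosine kinase list it was above 1 for 20 of 30 genes, with a median log2 value of 0.23. Histone genes as a list did not follow total RNA: their nt.gene median was 0.25, with 72 of 96 above 1, where 3837 of all 7624 genes were. These copies are near identical, so they are not separate observations. By class in nt.gene, 20 of 20 H2A, 16 of 23 H1, 11 of 13 H2B and 19 of 22 H4 copies were above 1. H3 differed, with 6 of 18 above 1 and a median of -0.16. Ribosomal protein genes had a median of 0.02 in nt.gene, and genes under 500 bp 0.06. At Enhancer of split genes the quotient was nearer 1 than in total RNA, at 4.23-fold for HLHm3 and 1.15-fold for HLHm7. Across all genes the Spearman correlation of the log2 values was 0.320 (n = 7624), and each pair of values shares its cells' labels and the same gene models.

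**Figure D5:**
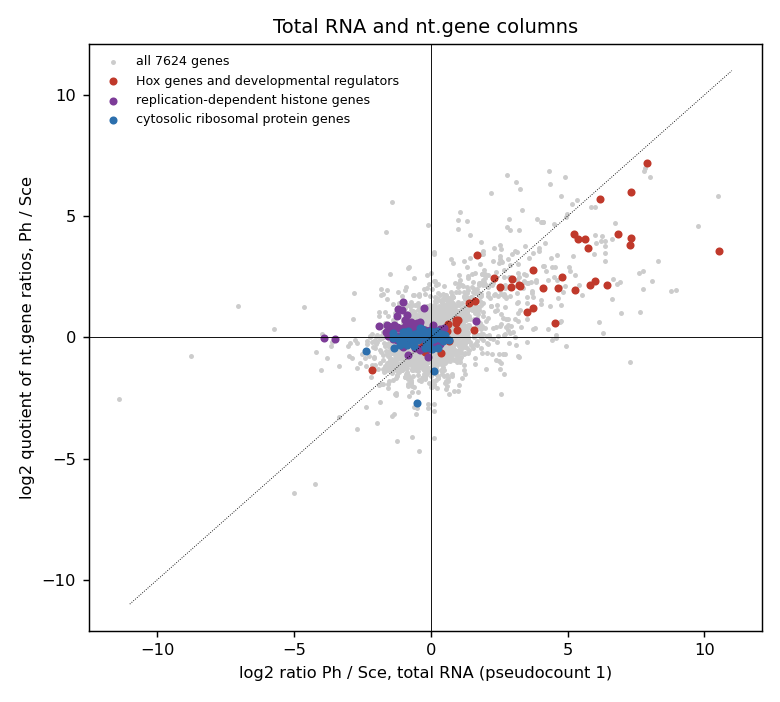
Each point is a gene, with the log2 ratio of Ph to Sce in total RNA (pseudocount 1) on the horizontal axis and the log2 quotient of the authors' nt.gene ratios on the vertical axis; the dotted line marks equality. Hox genes and developmental regulators (red) lie mostly above 0 on both axes, while histone genes (purple) have a median of -0.64 in total RNA and 0.25 in nt.gene, and ribosomal protein genes (blue) -0.38 and 0.02.

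Genes much higher with Ph lay side by side at several places, which is described here without a test. Of the 236 genes at least 4-fold higher that could be placed on the annotation, 61 (25.8%) had an adjacent listed gene that was also 4-fold higher, whereas 453 of all 7468 placed genes (6.07%) had such a neighbour. They formed 27 runs, 4 of which held genes whose annotated spans overlap, so that reads there may not be told apart. The longest run, of 5 genes, was in the Enhancer of split complex: HLHmbeta, malpha, m2, HLHm3 and HLHm7. Ama, Scr and Antp formed a run in the Antennapedia complex, and Ubx, abd-A and the noncoding gene msa a run in the Bithorax complex. Further runs included paired transcription factor genes, slp1 with slp2, salr with salm and disco-r with disco, as well as Wnt4 with wg and Ndae1. The targeted ph-d and ph-p also form such a run. Of all 245 genes at least 4-fold higher, 159 had a Sce mean under 798.3, the level each listed gene had to reach in some group. Ubx, abd-A, slp1, slp2, disco-r and disco reached it only with Ph, so their direction was set by that filter. The filter thus partly decides which genes are counted in the 25.8% and in the runs, and its part was not tested. Of the 55 genes at least 4-fold lower, 3 (5.45%) had such a neighbour, against 1.46% of all genes.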

How the data were processed

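BG3 cells were treated with double-stranded RNA, and RNA depleted of ribosomal RNA was made into barcoded Ion libraries, as the labels' protocols describe. The authors deposited 1 table of 7624 genes with a mean signal per gene and group, the ratio to Mock, and a p-value and q-value to 3 decimals, per the file headers. The submitters' processing notes name bedtools. Aligner, genome build, normalization, strand use and test were not given in the sources used here. Replicates are numbered, but not stated to be separate cultures. With 0 columns per library, tests over libraries were replaced by ratios of means, log2 with a pseudocount of 1, and counts at 2-fold and 4-fold. No fold is given against a column minimum (1.48 with Ph for 4 genes, 0.77 with Sce for 5). Another 3 columns, of nt.gene means, fit none of the labelled samples and stayed out.

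Members and the 43 gene lists (42 with listed genes) were chosen with earlier results of these data known. Named genes were the targeted genes, PRC1 and Hox genes, the 12 largest ratios per direction at or above the median level, the 8 largest differences of means per direction, and up to 4 members per list with the largest ratio and a mean of at least 800 in some group. Targeted genes, small RNA genes and those with a bare CG or CR number were left out of these ranks. Other members were named after their values were seen, and some genes are not reported here. Of the genes, 7471 (98.0%) matched RefSeq names (assembly Release 6) and 7486 (98.2%) had an exonic length in the Ensembl annotation, used for order and length only. Python 3.11.15, pandas 2.3.3 and numpy 2.4.6 were used, and the scripts were tested on simulated data.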

Additional observations from a re-analysis of the deposited data

Results flagged for a closer look

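The nt.gene columns lie outside the total RNA measurement, and they hold calls of their own. In the authors' deposited table, 129 genes were higher and 60 lower with Ph than in Mock at an nt.gene q under 0.05. With Sce, 5 genes were higher and 4 lower than in Mock at that threshold there. What these columns measured is unknown here, and whether the Ph and Sce counts differ was not tested. Among the 9 called with Sce, zfh2 had nt.gene ratios to Mock of 48.5 with Ph and 11.3 with Sce in the authors' deposited table, and wun had 0.332 with Ph and 0.435 with Sce.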

How the results depend on the processing

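No replicate spread, interval or limit of detection can be given, since the values used here are group means and depth is unknown. No paired analysis was possible because the table holds only group means. Leaving out a replicate and the models over libraries were not run for the same reason. Of 10 alternatives, rescaling without histone and ribosomal protein genes was chosen after seeing the data. It moved the median of all genes to -0.05, and under the others it lay between -0.02 and 0.02. Of the 116 named genes at least 2-fold apart, none changed direction and 4 came under 2-fold in some alternative. Pseudocounts and level filters cannot reverse a gene, and the largest shift of the all-gene median by a scaling was -0.039. The lack of reversals was thus set by the choice of alternatives. The median of all genes, near 0, came to 0 or changed sign under some scalings, as did the medians of the PRC1, Trithorax and Mediator lists, and Scm and Asx after the rescaling without histone and ribosomal protein genes (to -0.03 each). Of 42 list medians, 8 changed sign in some alternative. Both level filters turned that of neuroblast markers (0.55), to -0.05 and -0.02. The filter at the median level turned Notch (0.44 to -0.01) and ecdysone genes (0.08 to -0.03), and the filter on both means turned segmentation factors (0.18 to -0.03) and germline markers (-0.17 to 0.03). Filters on level changed the counts. At or above the median level, 93 genes were at least 2-fold higher with Ph and 82 lower, 34 and 7 at 4-fold, and the median of developmental regulators was 0.19. With both means at least 798.3, the counts were 260 and 221 at 2-fold and 86 and 22 at 4-fold, and the medians were 2.44 for Hox genes and 0.65 for developmental regulators. Fewer genes enter under either filter, by construction.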

Other observations

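Detoxification and stress genes gave a mixed picture. Over all genes, 6.49% were at least 2-fold higher with Ph and 4.35% lower. Of 12 listed glutathione S-transferase genes, 3 were at least 2-fold lower with Ph and 1 higher, and their median log2 ratio of -0.72 was the lowest of the lists plotted. GstE9 had 4511 with Ph and 14541 with Sce, whereas GstD2 had 1875 with Ph and 799 with Sce. Of 21 cytochrome P450 genes, 4 were higher and 1 lower, with Cyp28d1 at 16555 with Ph and 4134 with Sce. Among 22 chaperone genes, 3 were higher and none lower, Hsp67Ba at 11912 with Ph and 4595 with Sce among them. Of 21 immune genes, 2 were higher and 3 lower, with a median log2 ratio of -0.05, and the recognition gene PGRP-SD was at the low end, with 568 with Ph and 3721 with Sce, against 13698 in Mock.

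Genes with only a number for a name were 43.4% of the 495 higher genes and 48.8% of the 332 lower ones, near their share of 46.3% in the whole table. CG31690 (70417 with Ph and 4488 with Sce) and CG1673 (19327 with Ph and 79349 with Sce) had the largest ratios of such genes at or above the median level, and were chosen after their values were seen. In 36 genes total RNA and the nt.gene quotient were at least 2-fold apart in opposite directions, 14 of them higher and 22 lower with Ph in total RNA. The odorant-binding gene Obp85a was one, at 121 with Ph and 862 with Sce in total RNA and 3.57-fold in nt.gene.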
